A study of Mus musculus with 3 samples.

Results

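Kinesins are motor proteins that use ATP to move along microtubules or to take microtubule ends apart, and the 38 mouse genes described here are those of the 46603 measured whose symbol is Kif followed by a number and at most 1 letter from a to c. The set was read by function as 12 mitotic, 8 transport, 7 neuronal, 6 ciliary and 5 other kinesins, a grouping taken from general knowledge of the family. It was made when levels in these data were already known. The RNA came from KO-actin cells, which are mouse embryonic fibroblasts (MEFs) that lack their own β-actin and were made, in earlier work, to express a β-actin tagged with a nuclear localization signal (NLS). Polyadenylated RNA was sequenced in 3 libraries of this 1 group, numbered replicates 1 to 3, and neither knockout cells without the tagged actin nor wild-type cells are analysed here. The labels do not say whether the 3 are separate cultures, so the spread between them may be technical, and levels cannot be attributed to the loss or return of β-actin.

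Most kinesins share a motor domain that walks towards the plus end of a microtubule, and the tail decides what is carried. Mitotic kinesins slide spindle microtubules, move chromosomes and build the midzone at which a cell divides. Transport kinesins carry vesicles, mitochondria and endosomes in most cell types, while several paralogs are best known from axons and dendrites, and others serve primary or motile cilia.

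The deposited counts summed to 49932446, 49587453 and 44383636 in replicates 1, 2 and 3. All 10 fibroblast markers on a list of such genes were detected, with more than 3 counts in every library, as were 58.9% of protein-coding genes. Their sum ranged from 14366 to 15422 CPM (the usual scaling of counts to library size). Levels differed widely, from 4562 ± 226 CPM for Vim down to 4.97 ± 0.295 for Pdgfra (SD, n = 3). This marker list was made with earlier results of these data known, and Col1a2 and Thy1 were not on it. All 7 proliferation markers were also detected, with sums of 2499 to 2582 CPM. Replicate 2 stood somewhat apart: with it, 43.8% of 13814 genes varied among libraries beyond counting error, and without it 12.4% of 14037 did.

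Of the 38 kinesin genes, 34 had more than 3 counts in every library, 3 counts being the largest number that a count of 0 allows for. The same was true of 58.9% of the 21624 protein-coding genes. At least 1 CPM in every library was reached by 30 kinesins. Together they held 0.280% of all counts. To set genes side by side, CPM was divided by the length of all annotated exons of a gene in kilobases, called CPM per kilobase below. On that scale 17 of the 38 lay above 6.43, the median of the protein-coding genes detected in every library. All 17 were among the 34 detected kinesins. A median has as many genes above it as below, so 17 of 34 is the same share as in detected genes generally. These 17 were 8 of 12 mitotic, 6 of 8 transport, 2 of 7 neuronal, 0 of 6 ciliary and 1 of 5 other kinesins. In bulk RNA, fewer cells using a gene and less of its RNA in each cell cannot be told apart, and this holds for every level given here.

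**Figure D1:**
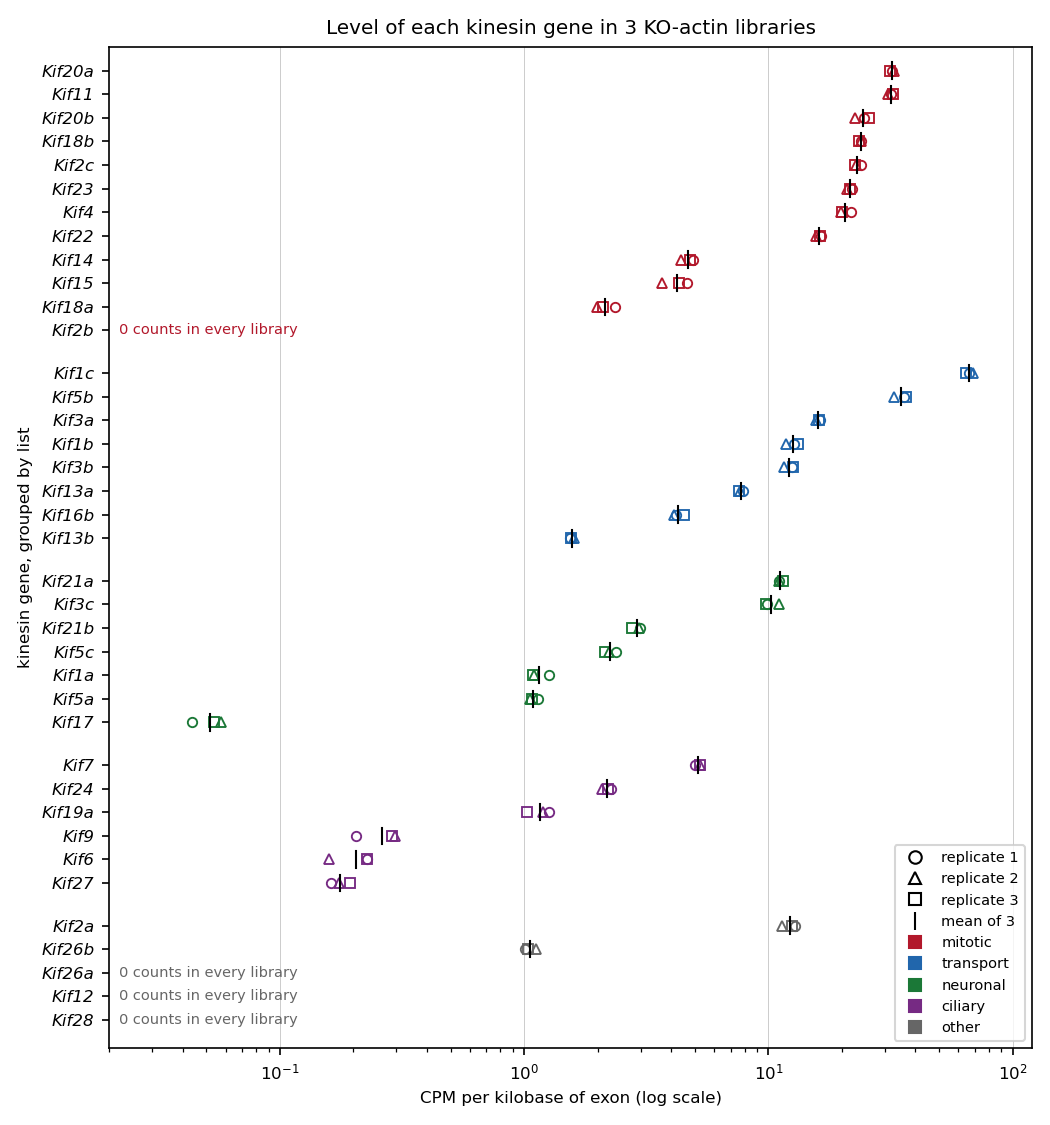
Level of each of the 38 kinesin genes in CPM per kilobase of exon on a log axis, with 1 symbol for each of the 3 libraries and a black line at the mean, genes grouped by list. Mitotic and transport genes fill the upper end, Kif1c stands highest at 66.3, and 4 genes had 0 counts in every library.

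The mitotic kinesins formed a dense upper tier, with 8 genes between 16.1 and 32.1 CPM per kilobase, then 3 genes between 2.14 and 4.68, and 1 without a read. Kif20a, known as MKLP2, which brings the chromosomal passenger complex to the spindle midzone, had 32.2, 32.6 and 31.6 CPM per kilobase in replicates 1, 2 and 3, a mean of 32.1 ± 0.519 (SD, n = 3). Kif11, or Eg5, the motor that pushes spindle poles apart, had 31.7, 30.8 and 32.3 CPM per kilobase, a mean of 31.6 ± 0.750 (SD, n = 3). The ranges of this pair overlapped, so neither led the list beyond the spread. Kif20b, a motor of late cell division also called MPP1, had 24.7, 22.7 and 25.9 CPM per kilobase, and Kif11 was above it in 3 of 3 libraries.

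Kif18b, which shortens astral microtubules, had 24.0, 23.9 and 23.6 CPM per kilobase, the tightest values of any kinesin with a coefficient of variation of 0.877%. Kif2c, also called MCAK, takes microtubule ends apart at kinetochores and had 24.0, 22.7 and 22.7 CPM per kilobase. Kif23, or MKLP1, which forms the centralspindlin complex with Racgap1, had 21.9, 20.95 and 21.6 CPM per kilobase. Neighbouring ranges overlapped between Kif20b and Kif18b, between Kif18b and Kif2c, and between Kif23 and Kif4, a chromokinesin with a mean of 20.6 ± 1.11 CPM per kilobase (SD, n = 3). Kif22, another motor that binds chromosomes, closed the upper tier at 16.1 ± 0.405 CPM per kilobase (SD, n = 3).

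A gap of 3.45-fold separated Kif22 from the next gene, Kif14, a cytokinesis motor at 4.68 ± 0.278 CPM per kilobase (SD, n = 3). Kif15, a motor that can take over from Kif11 in building a bipolar spindle, had 4.63, 3.67 and 4.32 CPM per kilobase. Kif11 stood 7.58 ± 0.789 times above it per kilobase of exon, the ratio ranging from 6.84 to 8.41 over the libraries, and 5.17 times above it per kilobase of the longest transcript. Kif18a, which damps chromosome movement at the metaphase plate, had 2.14 ± 0.188 CPM per kilobase (SD, n = 3), and the paralog Kif18b held 91.8% ± 0.649 (SD, n = 3) of the pair. Kif2b had 0 counts in each library, which allows up to 0.0673 CPM in the smallest of them.

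The order within this tier depended on how length was counted. Kif23 has 7901 exonic bases but a longest transcript of 3398, and per kilobase of that transcript it rose from rank 8 to rank 2 of all kinesins, at 49.99 CPM per kilobase, just above Kif11 at 48.9. The label of the upper tier itself did not depend on it, since the same 8 mitotic genes stayed above the other mitotic genes on both scales. Reads of genes on the opposite strand could also enter some values, because the strand setting of the counting is not given in the sources used here. Exons of Cdc23 on the other strand overlap 29.3% of the exonic bases of Kif20a, and Cdc23 had 50.4 CPM against 139 for Kif20a. For Kif4 the overlap with Pdzd11 was 15.1%, and Pdzd11 had 39.4 CPM against 114. Apart from these, Kif3c, Kif2a and Kif7, no kinesin shared more than 6.28% of its 50-base stretches with the transcripts of another gene.

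The promoters of many, but not all, of these mitotic genes hold a short word already known from genes of this kind. Promoters of genes used late in the cell cycle often carry the cell cycle genes homology region, or CHR, here taken as TTTGAA or TTCGAA on either strand (TTCAAA being the reverse of the first), and CCAAT boxes, read as CCAAT or ATTGG. Both words and the near-start limit of 30 bases were chosen after expression values had been seen. RefSeq windows on GRCm38.p6, running from 250 bases before a transcription start to 50 bases from it onwards, were at hand for 31 of the 38 genes. None was at hand for Kif20a of the mitotic list, so its promoter was not read. Windows were also lacking for Kif5b, Kif13b, Kif5a, Kif21b, Kif19a and Kif28. The 7 mitotic windows with a CHR near the start are printed from 50 bases before the start to 25 bases past its first base, 5′ to 3′ on the strand of the gene, with CHR letters in capitals:
Kif11: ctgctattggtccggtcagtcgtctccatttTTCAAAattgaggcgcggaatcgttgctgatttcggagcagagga
Kif15: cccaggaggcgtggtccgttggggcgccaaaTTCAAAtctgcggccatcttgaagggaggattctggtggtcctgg
Kif18b: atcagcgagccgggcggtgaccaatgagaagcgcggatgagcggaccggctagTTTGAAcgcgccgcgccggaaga
Kif20b: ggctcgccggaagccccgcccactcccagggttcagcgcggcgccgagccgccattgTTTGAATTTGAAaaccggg
Kif22: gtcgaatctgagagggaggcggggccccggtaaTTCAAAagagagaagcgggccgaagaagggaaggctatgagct
Kif23: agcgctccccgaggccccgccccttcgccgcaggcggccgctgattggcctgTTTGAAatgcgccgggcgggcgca
Kif4: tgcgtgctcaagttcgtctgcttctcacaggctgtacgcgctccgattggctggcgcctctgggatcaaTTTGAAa

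These stretches lie at chr19:37376332-37376407 on the plus strand for Kif11, chr9:122951031-122951106 on the plus strand for Kif15, chr11:102925099-102925174 on the minus strand for Kif18b and chr19:34922308-34922383 on the plus strand for Kif20b. Those of Kif22 at chr7:127042395-127042470 and of Kif23 at chr9:61946774-61946849 are on the minus strand, and that of Kif4 at chrX:100626015-100626090 is on the plus strand. Counting the first transcribed base as 0, the CHR began at -19 in Kif11 and in Kif15, at -17 in Kif22, at 2 in Kif23, at 3 in Kif18b and at 19 in Kif4. Kif20b held 2 copies end to end, at 7 and 13. CCAAT letters came before the CHR at -45 in Kif11, at -53 and -30 in Kif18b, at -54 in Kif22, at -7 in Kif23 and at -5 in Kif4, counted at their first base.

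A CHR within 30 bases of the start was present in 7 of 11 mitotic windows (63.6%), against 3.45% of all 32851 windows and 2.37% of the 12811 windows of protein-coding genes detected here. Anywhere in the window, it was present in 9 of 11 mitotic, 0 of 7 transport, 1 of 6 neuronal, 2 of 6 ciliary and 1 of 5 other windows, beside 19.2% of all windows. The 11 mitotic windows came from 11 genes, the 7 transport windows from 6, the 6 neuronal and 6 ciliary windows from 5 each and the 5 other windows from 4. CCAAT letters were found in 7 of 11 mitotic, 4 of 7 transport and 0 of 6 neuronal windows, beside 37.4% of all windows. The CHR letters of Kif14 began at -228 and those of Kif2c at -103, in windows whose starts lie 1505 and 3867 bases inside the annotated gene. The neuronal window with CHR letters, of Kif1a, has its start 19471 bases inside the gene. For Kif27 of the ciliary list, also with CHR letters, the start lies 4175 bases inside. For Kif17 of the neuronal list, without them, it lies 11816 bases inside. No CHR letters were in the windows of Kif18a and Kif2b. Such matches describe letters and are neither binding sites nor causes of a level.

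Outside the mitotic list, CHR letters near the start occurred in Kif24, a motor of the mother centriole, and in Kif26b, an atypical kinesin. Both are shown with Kif1c and Kif3b, transport genes of high and middle level whose windows hold no CHR, as a contrast:
Kif24: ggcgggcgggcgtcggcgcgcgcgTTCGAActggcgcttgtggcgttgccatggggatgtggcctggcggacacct
Kif26b: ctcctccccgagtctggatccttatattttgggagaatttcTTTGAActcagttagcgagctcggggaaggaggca
Kif1c: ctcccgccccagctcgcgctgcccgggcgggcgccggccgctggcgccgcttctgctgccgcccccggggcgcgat
Kif3b: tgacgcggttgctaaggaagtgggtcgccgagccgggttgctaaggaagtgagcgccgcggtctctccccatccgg

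They lie at chr4:41464823-41464898 on the minus strand for Kif24 and, on the plus strand, at chr1:178529075-178529150 for Kif26b, chr11:70700498-70700573 for Kif1c and chr2:153291366-153291441 for Kif3b. The median number of CpG in 300 bases was 40 in transport, 38 in other, 25 in mitotic, 19.5 in neuronal and 16 in ciliary windows, beside 20 in windows of detected protein-coding genes and 7 in all windows. The windows of 1 gene can overlap, as the 2 of Kif1b do, so windows are not independent. Starts of all printed stretches lie within 51 bases of the GENCODE gene start except that of Kif4, which lies 328 bases inside it.

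**Figure D2:**
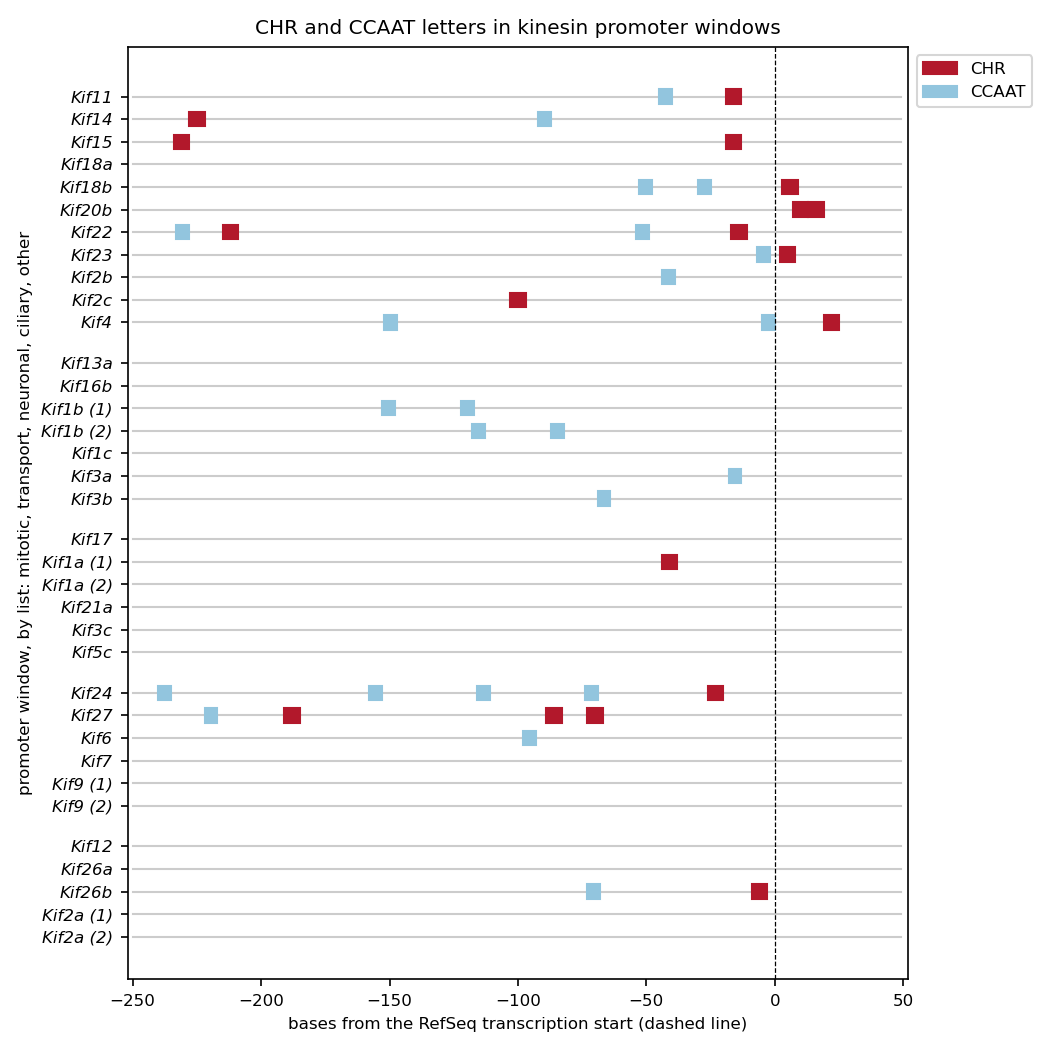
Position of CHR letters (red) and CCAAT letters (blue) in the 35 RefSeq promoter windows of 31 kinesin genes, in bases from the transcription start, ordered by list. Near the dashed start line red marks stand in 7 of 11 mitotic windows and in no transport or neuronal window, and genes with more than 1 window are numbered.

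Per kilobase of exon, the transport kinesins were led by a pair of genes far above the rest. Kif1c, a fast carrier of vesicles found in many cell types, lies at chr11:70700548-70731964 on the plus strand and had 66.0, 68.5 and 64.3 CPM per kilobase. Its mean of 66.3 ± 2.12 CPM per kilobase (SD, n = 3) was the highest of all kinesins, above 96.6% of protein-coding genes. Kif5b, the conventional kinesin heavy chain used in most cells, had 35.8, 32.6 and 36.7 CPM per kilobase, and Kif1c stood 1.90 ± 0.181 times above it (SD, n = 3). This order held in 3 of 3 libraries and also in plain CPM, at 482 ± 15.5 for Kif1c and 280 ± 17.2 for Kif5b (SD, n = 3).

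Kif3a, a motor subunit of heterotrimeric kinesin-2 that drives transport into cilia, had 16.3, 15.6 and 16.1 CPM per kilobase. Kif3b, its usual partner subunit, had 12.5, 11.5 and 12.6 CPM per kilobase, and Kif3a was 1.32 ± 0.0366 times as high (SD, n = 3), a ratio that became 0.837 in CPM not divided by length. Kif1b, which carries mitochondria and synaptic vesicle precursors in forms made from 1 gene, had 12.7, 11.9 and 13.2 CPM per kilobase, overlapping the range of Kif3b. Kif13a, a carrier from the Golgi and endosomes, had 7.84, 7.68 and 7.59 CPM per kilobase. Below these came Kif16b, a motor of early endosomes, at 4.27 ± 0.209 and Kif13b at 1.57 ± 0.0305 CPM per kilobase (SD, n = 3). Apart from Kif1b and Kif3b, neighbouring transport genes had ranges that did not overlap per kilobase of exon. The place of Kif1b depended on length, as it has 17608 exonic bases but a longest transcript of 10233. Per kilobase of the longest transcript it had 21.7, above Kif3a at 18.2 and Kif3b at 12.2. In CPM not divided by length it had 222, beside 280 for Kif5b, 68.7 for Kif3b and 57.5 for Kif3a.

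Partners of these motors, from lists of kinesin light chains, adaptors and other motor proteins, were detected alongside. The light chains Klc1 and Klc2, which link conventional kinesin to cargo, had 35.7 ± 1.87 and 20.1 ± 1.03 CPM per kilobase (SD, n = 3), beside 35.03 ± 2.15 for Kif5b. Kifap3, the third subunit of kinesin-2, had 13.1 ± 0.542 CPM per kilobase (SD, n = 3), between Kif3b and Kif3a. Racgap1, the partner of Kif23, had 75.2 ± 0.525 CPM per kilobase (SD, n = 3). All 11 light chains and adaptors were detected in every library, of which 8 varied among libraries beyond counting error, beside 43.8% of all genes tested, and 2 still did without replicate 2, beside 12.4%. All 10 spindle partners were detected, 7 varying with replicate 2 and 2 without it, against the same 43.8% and 12.4% of all genes. Among 8 genes of dynein and dynactin, the motor that moves the opposite way, all were detected, 4 varied (43.8% of all genes did), 1 still did without replicate 2 (12.4% of all genes), and Dync1h1 had 27.6 ± 0.0711 CPM per kilobase (SD, n = 3).

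Motor genes whose symbols fall outside the Kif-number rule spanned a wide range, and all 6 on a list of them were detected, 4 varying with replicate 2 and 2 without it, beside 43.8% and 12.4% of all genes tested. Kifc1, a minus-end motor of the spindle, had 25.1 ± 0.976 CPM per kilobase and Cenpe, the kinetochore motor, had 18.5 ± 1.32 (SD, n = 3), both within the range of the upper mitotic tier. Kifc1 has a near copy, Kifc5b, at 10.7 ± 0.602 CPM per kilobase (SD, n = 3), and reads of this pair may have been split or dropped in counting. Kifc2, a motor of the nervous system, had 0.676 ± 0.0663 CPM per kilobase (SD, n = 3).

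Kinesins best known from neurons were detected, 7 of 7, but at low levels apart from 2 genes. Kif21a, a motor that also restrains microtubule growth and is used outside neurons, had 11.1, 11.1 and 11.4 CPM per kilobase. Kif3c, a kinesin-2 subunit at chr12:3365132-3406494 on the plus strand that can replace Kif3b in neurons, had 9.89, 11.1 and 9.79 CPM per kilobase, and its highest library reached the range of Kif21a. Of the exonic bases of Kif3c, 40.7% are overlapped by 1110002L01Rik on the other strand, which had 9.997 CPM against 76.0 for Kif3c.

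Kif21b, the paralog of Kif21a, had 2.97, 2.96 and 2.78 CPM per kilobase. Kif5c, a conventional heavy chain of neurons, had 2.39, 2.22 and 2.15 CPM per kilobase. Kif1a, the carrier of synaptic vesicle precursors, had 1.26, 1.10 and 1.09 CPM per kilobase. These 3 were distinct, each above the next in every library without overlap. Kif5a, the remaining conventional heavy chain, had 1.14, 1.06 and 1.07 CPM per kilobase, which overlapped the range of Kif1a. Kif17, a dendritic carrier of glutamate receptors, had only 10, 13 and 11 counts, or 0.0517 ± 0.00712 CPM per kilobase (SD, n = 3), so that Kif5a stood 21.1 times above it.

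Neuron markers bear on these levels. Of 10 on the list, 9 were above 3 counts in every library, and their sum was 57.8 to 58.5 CPM, of which Map2 gave 40.9 and Tubb3 11.0 CPM. Dcx, which marks young neurons, had 1, 0 and 0 counts, and Rbfox3, which encodes the neuronal antigen NeuN, had 14, 16 and 14. The 7 neuronal kinesins summed to 218 ± 5.08 CPM (SD, n = 3). A contribution of neuron-like cells to the neuronal kinesins was not tested.

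Summed over each list, mitotic kinesins reached 209, 199 and 205 CPM per kilobase, transport kinesins 157, 154 and 157, and neuronal kinesins 28.7, 29.6 and 28.4. The mitotic sum was 1.31 ± 0.0152 times the transport sum (SD, n = 3), a log2 ratio of 0.39, and the transport sum was 5.39 ± 0.174 times the neuronal sum (SD, n = 3), a log2 ratio of 2.43. The first of these orders depended on the length correction, since in CPM the sums were 1210 ± 34.2 for mitotic and 1231 ± 19.8 for transport kinesins (SD, n = 3) and the log2 ratio was -0.026. Its size depended on the single gene Kif1c, without which the mitotic list stood further above, at a log2 ratio of 1.19. The lower neuronal sum held in each library and on every scale used, with log2 ratios of transport over neuronal from 1.63 without Kif1c to 3.14 without Kif21a. Medians gave the same order, at 21.1 ± 0.757 CPM per kilobase for mitotic, 12.4 ± 0.624 for transport and 2.25 ± 0.122 for neuronal genes (SD, n = 3). The median was 0.490 over all protein-coding genes and 6.43 over those detected in every library, which is above the neuronal median. The lists were made with levels in these cells already known, and no test was made of the differences between them.

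The ciliary list stayed low, with Kif3a, which also serves cilia, and its partner Kif3b counted among the transport kinesins. Kif7, a regulator of Hedgehog signalling at the tip of primary cilia, led it with 5.02, 5.24 and 5.23 CPM per kilobase, and the gene that overlaps 20.3% of its exonic bases on the other strand had 2, 0 and 0 counts. Kif24 had 2.19 ± 0.0957 and Kif19a, which sets the length of motile cilia, 1.16 ± 0.121 CPM per kilobase (SD, n = 3). Kif9, Kif6 and Kif27, which are tied to motile cilia, had 42 to 68 counts in each library, Kif6 overlapping the ranges of both others, and the lowest was Kif27 with 0.161, 0.175 and 0.194 CPM per kilobase. Of 8 markers of multiciliated cells, 4 were above 3 counts in every library, and the sum was 3.24 to 4.01 CPM. Those 4 were Ccdc39 with 114, 73 and 78 counts, Rsph1 with 39, 43 and 49, Foxj1 with 37, 33 and 45, and Mcidas with 8, 11 and 4. Tekt1 and Deup1 were at 0 counts in every library, and Dnah5 and Dnah9 each had 1, 0 and 0.

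Among the remaining kinesins, Kif2a, a microtubule depolymerase of interphase and spindle poles, had 12.9, 11.3 and 12.5 CPM per kilobase. Exons of Dimt1 on the other strand overlap 19.2% of its exonic bases, and Dimt1 had 28.1 CPM against 78.2 for Kif2a. Kif26b had 1.011, 1.11 and 1.04 CPM per kilobase. Kif12, Kif26a and Kif28 had 0 counts in replicates 1, 2 and 3, as Kif2b did. A count of 0 in all 143903535 counts allows up to 0.0208 CPM over the group, which covers counting error only, so these 4 genes were not detectable at this depth.

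Within families named by a shared number, 1 paralog usually carried most of the level. Kif5b held 91.3% ± 0.569 of the Kif5 level per kilobase, Kif5c 5.88% ± 0.429 and Kif5a 2.84% ± 0.140 (SD, n = 3). Kif5b stood 15.6 ± 1.29 times above Kif5c and 32.1 ± 1.82 times above Kif5a (SD, n = 3). In the Kif1 family, Kif1c held 82.8% ± 1.19, Kif1b 15.8% ± 1.15 and Kif1a 1.44% ± 0.123 (SD, n = 3). The broadly used member outweighed the neuronal one in every library of both families.

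In the other families, Kif13a held 83.1% ± 0.400 of its pair, Kif21a 79.4% ± 0.920 and Kif2c 65.4% ± 1.18 of its family (SD, n = 3). Kif26b held 100% because Kif26a had no count. The Kif3 family was the most even, with 41.6% ± 0.717 for Kif3a, 31.7% ± 1.34 for Kif3b and 26.7% ± 2.01 for Kif3c (SD, n = 3). Here the leader changed with the scale, since Kif3c held 37.6% and Kif3a 28.4% of plain CPM. Kif20a held 56.8% ± 2.05 of its pair per kilobase (SD, n = 3) but 45.1% of CPM, where Kif20b led with 54.9%. In the other families with 2 detected members or more, the leading gene was the same on the 3 length scales.

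**Figure D3:**
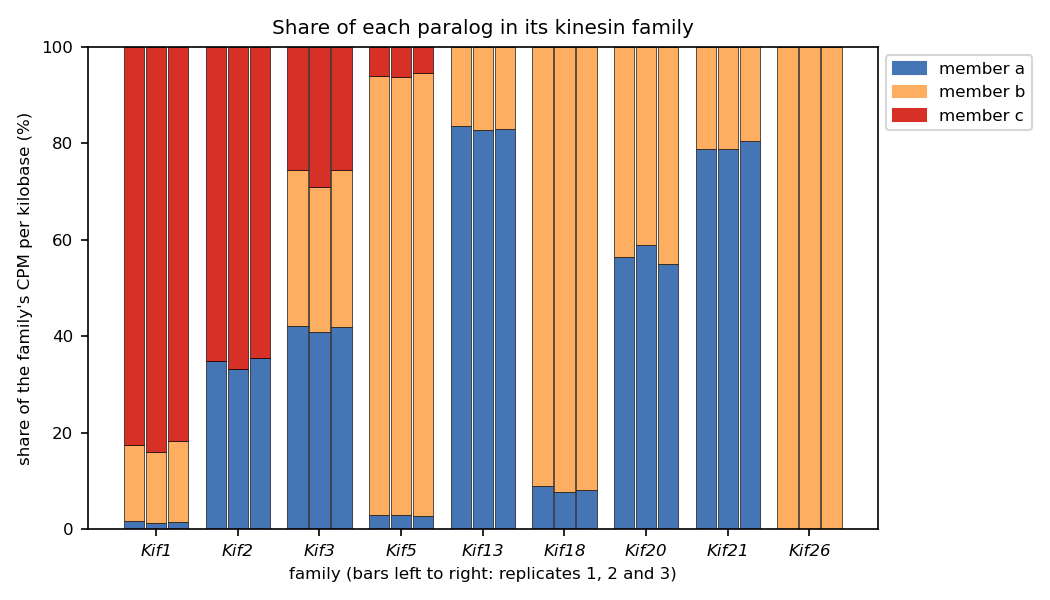
Share of each paralog in its family's summed CPM per kilobase, in percent, with 1 bar for each of the 3 libraries. The leading member held 82.8% of Kif1, 83.1% of Kif13, 91.3% of Kif5 and 91.8% of Kif18, and all of Kif26, while Kif3 was split among 3.

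How far the kinesins varied among the 3 libraries was tested by a chi-square of each gene's counts, with Benjamini-Hochberg adjustment over the 13814 genes that had 10 counts or more in all 3. At an adjusted p under 0.05, 15 of 34 kinesins varied beyond counting error, a share like the 43.8% of all genes tested. They were 8 of 11 mitotic, 5 of 8 transport, 1 of 7 neuronal, 0 of 6 ciliary and 1 of 2 other genes. Without replicate 2, 5 of 34 did, beside 12.4% of all genes tested: Kif20b, Kif2c and Kif4 of the mitotic list and Kif1b and Kif1c of the transport list. All 15 were among the 30 kinesins that had 100 counts or more in each library. The median coefficient of variation was 4.99% over the kinesins, from 0.877% to 19.5%, and 5.56% over all genes tested.

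Replicate 2 held the lowest value for most kinesins that varied. Of the 34, 12 were both past the threshold and lowest in replicate 2, beside 18.5% of all genes tested. These were 12 of the 15 kinesins past the threshold, beside 2551 of the 6046 genes past it over all genes tested. Past it or not, 17 of the 34 were lowest in replicate 2, beside 38.7% of all genes tested. The largest chi-square among kinesins, 101, belonged to Kif5b, with 286, 260 and 293 CPM in replicates 1, 2 and 3 and an adjusted p of 4.40e-21 by the chi-square test, which became 0.176 without replicate 2. Kif20b followed with 172, 158 and 180.2 CPM and an adjusted chi-square p of 4.21e-15, which became 0.0286. For Kif1b, 224, 209 and 233 CPM gave an adjusted chi-square p of 1.78e-13, which became 0.0379. In all 3 genes replicate 2 was the lowest library.

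Among those 30 kinesins, the widest swing was in Kif15, whose 51.0, 40.4 and 47.7 CPM put replicate 2 lower by a log2 difference of -0.29 from the mean of the others. Its adjusted chi-square p was 6.38e-13 with replicate 2 and 0.116 without it. Kif1c and Kif3c went the other way. Kif1c had 481, 498 and 468 CPM, with an adjusted chi-square p of 1.05e-09 that became 0.0364 without replicate 2. Kif3c had 73.3, 82.2 and 72.5 CPM, a log2 difference of 0.17 for replicate 2, and its adjusted chi-square p of 1.02e-07 became 0.841 without that library.

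The base composition of the transcripts moved with the deviation of replicate 2. Over the 34 kinesins, that deviation had a Pearson correlation of 0.49 and a Spearman correlation of 0.63 with the GC content of the longest transcript, a description over genes that share the same 3 libraries. Of the 17 genes at or below the median GC of 48.98%, 15 were lower in replicate 2 than in the mean of the others, with a median log2 difference of -0.08. Of the 17 above it, 8 were lower, with a median of 0.01. Correlations and shares by GC were computed over the kinesins only, so whether they are particular to kinesins is not known. The median log2 difference was -0.06 over the 11 mitotic kinesins tested and -0.07 over the 8 transport kinesins. It was -0.02 over the 7 neuronal kinesins, 0.0053 over the 6 ciliary kinesins and -0.0028 over all genes tested. Among the other lists, it was -0.07 over the proliferation markers, 0.02 over the spindle partners, and 0.02 over the light chains and adaptors. It was 0.00036 over dynein and dynactin genes, 0.04 over motor genes outside the Kif-number rule and 0.08 over fibroblast markers. Neuron markers had -0.33 and multiciliated markers -0.25. Unlike the kinesin medians, both took in genes with fewer than 10 counts in a library. Examples are Nefl with 12, 9 and 19 counts and Mcidas with 8, 11 and 4. The median GC was 48.7% for transport, 53.8% for neuronal and 50.7% for ciliary kinesins, and 47.3% over all 12 mitotic genes, Kif2b included. The part of base composition in these differences was not tested.

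**Figure D4:**
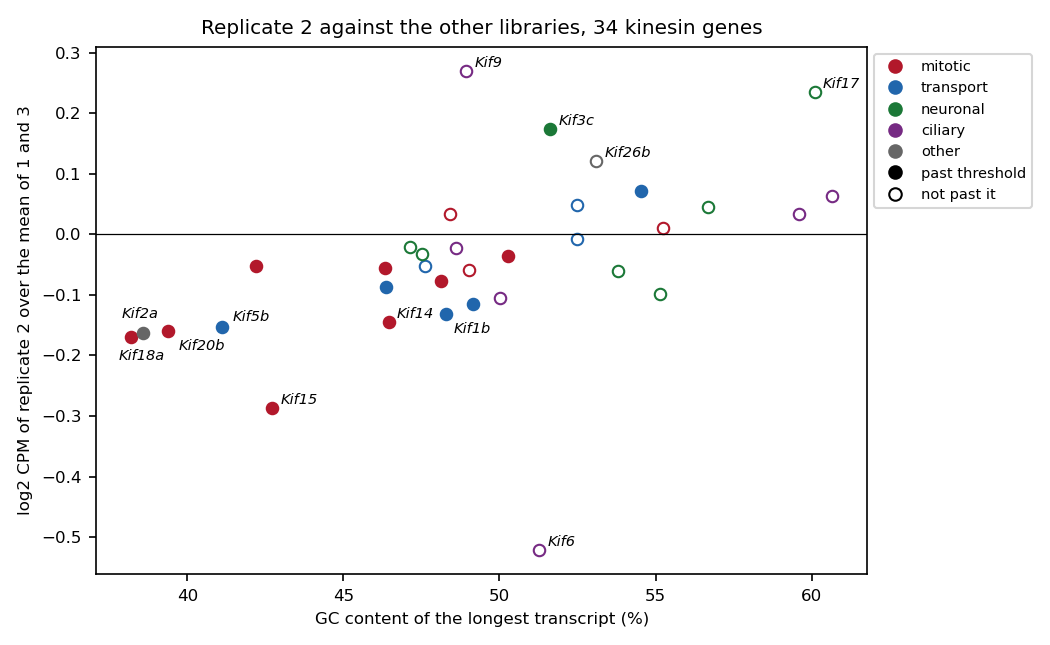
Difference of replicate 2 from the mean of replicates 1 and 3, as log2 of CPM, against the GC content of the longest transcript in percent, for the 34 kinesins tested. Filled points passed the chi-square threshold, and genes of low GC lie mostly below 0, 15 of 17 at or below the median GC.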

How the data were processed

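Polyadenylated RNA of 3 KO-actin libraries was analysed. The values the authors deposited are raw read counts for each Ensembl gene and library, not normalized. The submitters' processing notes list Trimmomatic, FastQC, HISAT2 and HTSeq with mm10 and GRCm38. The strand setting, annotation release and treatment of reads that match several genes are not given in the sources used here, which touches overlapping and near-identical genes. Symbols, coordinates and exonic lengths came from GENCODE M21 on GRCm38, which gave a symbol for 46005 of 46603 genes, and promoters came from RefSeq. Kif25 was listed but no row matched it.

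CPM used TMM library sizes (edgeR 4.0.16, R 4.3.3) computed on genes that had 10 counts or more in each. Levels of genes were ranked per kilobase of exon, and CPM not divided by length is named as such where given as an alternative or beside an overlapping gene. Variation among libraries was called at 0.05 from a Benjamini-Hochberg adjusted chi-square (2 degrees of freedom), a test that compares libraries and not conditions. That test was tried on simulated counts whose only noise was counting error, so other noise between libraries was not covered. Values per library were given for the 6 highest mitotic and transport genes per kilobase, every neuronal gene, the highest and lowest of the other lists, the 6 largest chi-squares past the threshold and genes at or under 3 counts. Members and lists were chosen with earlier results of these data known, and lists, promoter words and limits support nothing beyond description. Alternatives were DESeq2 1.42.0 size factors, total counts, other filters, other lengths, leaving out each replicate, the neuronal list without Kif21a and, added after seeing the data, the transport list without Kif1c. Python 3.11.15, numpy 2.4.6, pandas 2.3.3, scipy 1.17.1 and matplotlib 3.10.9 were used.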

Additional observations from a re-analysis of the deposited data

How the results depend on the processing

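The log2 ratio of mitotic over transport kinesins, 0.39 per kilobase of exon, was reversed to -0.026 in CPM not divided by length, was 0.63 per kilobase of the longest transcript, and was 1.19 without Kif1c, the last chosen after seeing the data. In the same order of settings, transport over neuronal, 2.43, became 2.49, 2.59 and 1.63, and mitotic over neuronal, 2.82, became 2.47 in CPM and 3.22 per longest transcript. Without Kif21a, transport over neuronal was 3.14 and mitotic over neuronal 3.53. Shares of the leading paralogs in CPM and per longest transcript were 75.3% and 79.8% for Kif13a, 80.2% and 88.8% for Kif18b, 67.4% and 75.8% for Kif1c, 67.2% and 74.7% for Kif21a, 56.3% and 70.7% for Kif2c, 28.4% and 43.7% for Kif3a, 92.2% and 92.9% for Kif5b, and, in CPM, 45.1% for Kif20a. Without replicate 1, 2 or 3, respectively 11, 5 and 13 of 34 kinesins varied beyond counting error, beside 32.9%, 12.4% and 34.2% of all genes tested. With all 3 libraries 15 of 34 did, beside 43.8%. This count was 14 with DESeq2 size factors and 15 with total counts, each beside 43.9% of all genes tested. It was 16 of 30 with at least 100 counts required, beside 51.7% of all genes, and 13 with no filter, beside 25.9%. The other scalings moved 0 of 68 single-gene values by more than 1 SD, and the median level of the 38 genes, 42.5 CPM, ranged from 41.5 to 44.3 when 1 replicate was left out. No paired analysis was possible because the 3 libraries form 1 group. Depth limits Kif17 and the ciliary genes with few counts, and for the genes at 0 counts only upper limits can be given.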
